A study of Mus musculus with 49 samples.

Results

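The nuclear genes for the subunits of the 5 oxidative phosphorylation complexes were followed in RNA-seq libraries of mouse frontal cortex. Genes were chosen by name (Nduf, Sdh, Uqcr, Cyc1, Cox4 to Cox8 and Atp5 symbols) and by a mean deposited value of 5 or more on the log2 scale over 49 libraries. The table held 24495 genes, of which 85 had such a name and 81 passed the level threshold. Assigned by symbol, they were 36 of complex I, 4 of complex II, 9 of complex III, 15 of complex IV and 17 of complex V. The rule used names and the mean level over all libraries, and no difference between groups. The values are the authors' log2 of size-factor-scaled reads with 1 added. Just inside the threshold lay Cox7a1 at 5.39 and Cox6b2 at 5.70, and just outside it Cox7b2 at 2.99 and Cox8b at 2.15. Cox8c was at 0.02, and Ndufs5 was listed at 0 in every library.

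The mice were fed a high fat diet. Wild-type (WT) mice had the diet for 2 months (9 libraries, 2MHF) or for 4 months (10 libraries, 4MHFW). Another group was labelled AKO, which the growth protocol spells Amylin-KO, with 4 months of diet (10 libraries, 4MHFA). The remaining mice carried a conditional human amylin transgene, had 4 months of diet, and received vehicle (10 libraries, CreVE) or tamoxifen (10 libraries, CreTM), with brains taken after 2 months. The labels give no promoter or Cre driver, strain, sex, age, litter or batch, so the transgenic and WT groups may differ in more than the transgene. Nothing in the labels says whether each library is 1 animal, so every p-value rests on library-to-library spread, which may be technical.

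Oxidative phosphorylation takes place in the inner mitochondrial membrane. Complex I oxidises NADH and complex II oxidises succinate; both pass electrons to ubiquinone, complex III passes them to cytochrome c, and complex IV passes them to oxygen. Complexes I, III and IV pump protons, and complex V, the ATP synthase, uses the gradient to make ATP. Complexes I, III, IV and V each combine subunits of nuclear and of mitochondrial DNA, while complex II is nuclear only. The cortex draws most of its ATP from this pathway. The table held 0 of the 13 mitochondrial DNA-encoded subunit genes, so only nuclear subunits were measured.

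Library depth ran from 29.2 to 75.6 M reads, with a median of 42.0 M. The targeted gene went against its label: Iapp, which encodes amylin, lay between 5.56 and 6.17 on the log2 scale in every library labelled AKO, and was listed at 0 in every 2MHF, 4MHFW and CreTM library. In CreVE it ran from 0 to 1.16. The libraries labelled AKO are therefore called that throughout. 2 transgenic libraries stood apart by brain region markers. In CreVE 3 the summed log2 level of the olfactory bulb list was 16.96 (13.95 to 16.52 in the other 9) and that of the excitatory neuron list 17.08 (17.69 to 18.50 in the others). In CreTM 9 the values were 15.89 (14.02 to 15.52) and 17.06 (17.96 to 18.49). In 2MHF 37 the striatum list was at 16.29 (13.33 to 15.41) and the excitatory list at 17.91 (18.13 to 18.47). The excitatory and pan-neuronal lists had no gene at 0 in every library, and 4 of 5 erythrocyte markers were at 0 everywhere. In bulk tissue, fewer cells of a type and less RNA per cell cannot be told apart.

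Transcript levels ranged widely within each complex. Divided by the length of a principal transcript, the median level was 4044 normalised reads per kilobase for complex I, 4070 for complex II, 5901 for complex III, 9371 for complex IV and 7416 for complex V (16 of its 17 genes had a length). The highest level per kilobase was that of Ndufa4 (17210) in complex I by its symbol, although its product was later assigned to complex IV. In complex II it was Sdha (7864), the flavoprotein that oxidises succinate, ahead of its iron-sulphur partner Sdhb (5189) and the membrane anchors Sdhd (2951) and Sdhc (1332). In complex III it was Uqcrh (11000), the hinge protein, while the Rieske iron-sulphur protein Uqcrfs1 was the lowest (3782) and cytochrome c1, Cyc1, was at 5000. Cox4i1 (33800), the common isoform of subunit 4 of complex IV, and Atp5b (33260), the catalytic beta subunit of the ATP synthase, were the highest of their complexes. Ndufa4l2 (102.6), Cox4i2 (85.91) and Atp5s (407.8) were the lowest in complexes I, IV and V as assigned by symbol. Ndufa4l2, like Ndufa4, was later assigned to complex IV. Atp5s and Atp5sl carry the ATP synthase name but are not structural subunits of complex V. Levels per kilobase depend on the transcript length chosen for each gene.

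**Figure D1:**
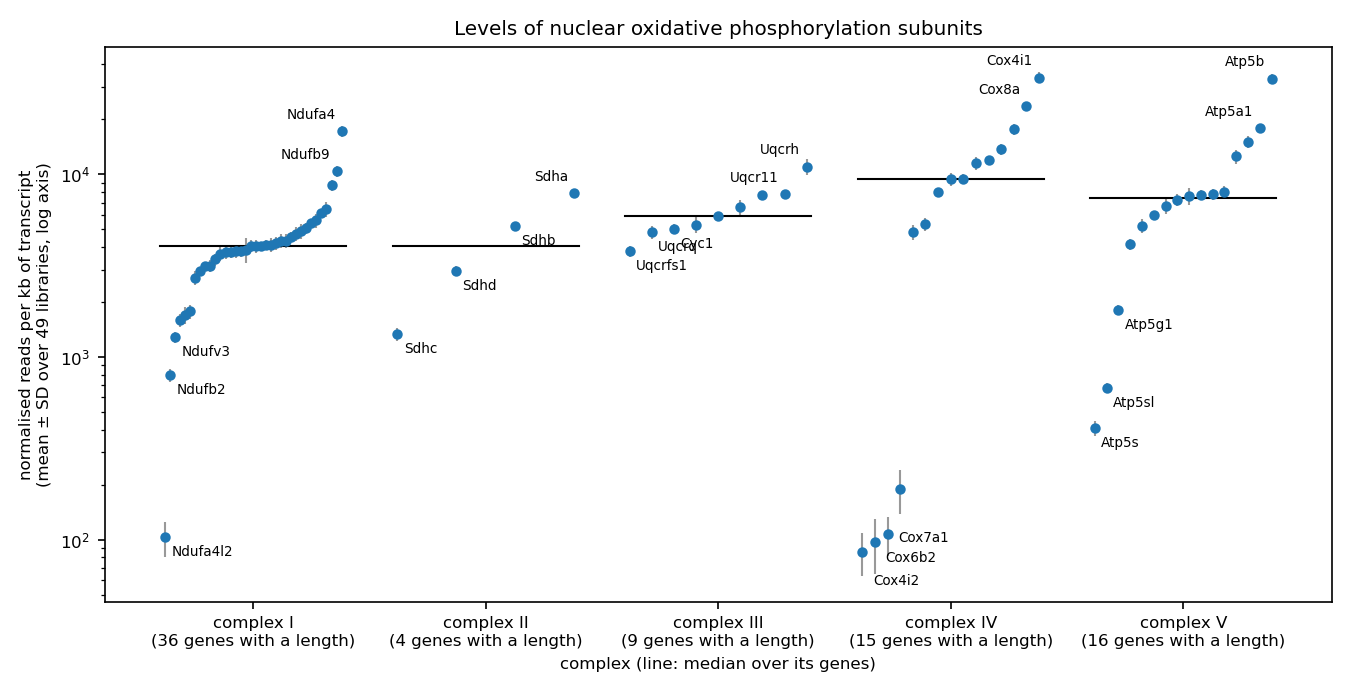
Mean normalised reads per kilobase of principal transcript over 49 libraries (log axis), 1 point per gene, by complex, with the median as a line. Cox4i1 at 33800 and Atp5b at 33260 are at the top, and the low points of complex IV are its tissue or condition isoforms.

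The isoform pairs kept to the common form in every library. Cox4i1 exceeded Cox4i2, the isoform induced by low oxygen, by a median of 414.7 times per kilobase (247.8 to 704 over 49 libraries). Cox6a1 exceeded Cox6a2, the heart and muscle isoform that in brain is known from parvalbumin interneurons, by 95.32 times. Cox6b1 exceeded Cox6b2 by 133.3 times, Cox7a2 exceeded Cox7a1 by 73.75 times, and Ndufa4 exceeded Ndufa4l2 by 173.1 times. Of the 3 genes that encode the same c-ring subunit of the ATP synthase, Atp5g3 exceeded Atp5g2 by 3.634 times and Atp5g1 by 8.384 times per kilobase. These ratios depend on the lengths used: 2675.5 bases for Atp5g1, 718.5 for Atp5g3 and 586 for Atp5g2. Without division by length the order differed, with mean log2 values of 13.40 for Atp5g3, 12.24 for Atp5g1 and 11.24 for Atp5g2. Many of these genes have processed pseudogenes, and the sources used here do not give how the authors assigned reads between near-identical copies. In the GENCODE M21 annotation 22 members overlap another protein-coding gene, 1 of them (Ndufa13) on the same strand, and whether the counting used strand is likewise not given. Ndufs1 overlaps Eef1b2, Cox6a2 overlaps Itgad, Cox4i1 overlaps Emc8, Uqcrb overlaps Gm10767, Cox6c overlaps Vps13b and Atp5f1 overlaps Wdr77, each on the opposite strand.

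Because the members moved together across libraries, their promoters were read for 5 motifs of factors tied to nuclear respiratory genes. RefSeq windows (GRCm38.p6) were matched by gene ID for 66 of 81 members, 60 with a single entry. The 250 bases before the start were searched on both strands. GCATGCGC (NRF1) was in 8 of 60 member windows (13.3%), against 4.58% of the windows of 8813 expressed genes and 2.31% of all 22862. GGGGCGGGG (the GC box of Sp1) was in 10 (16.7%, against 20.6% of expressed genes), CCGGAAGT (ETS family) in 3 (5%, against 5.9%), TCAAGGTCA (estrogen-related receptor) in 1 (1.67%, against 0.216%) and AAGATGGC (YY1) in 0 (against 2.02%). These are matches of letters, not sites. By complex, NRF1 letters were in 3 of 29 windows of complex I, 1 of 3 of complex II, 0 of 5 of complex III, 1 of 11 of complex IV and 3 of 12 of complex V. In the first windows below, capitals mark the NRF1 letters, which in Cox6a1 run on both strands and overlap, and the GC box in Ndufa10.
Cox6a1 (chr5:115348982-115349208, minus strand): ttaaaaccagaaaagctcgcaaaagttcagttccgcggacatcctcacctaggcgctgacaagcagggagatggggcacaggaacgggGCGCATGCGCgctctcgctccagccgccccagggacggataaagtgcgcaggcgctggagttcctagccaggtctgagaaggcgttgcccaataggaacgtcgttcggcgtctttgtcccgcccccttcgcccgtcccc
Atp5l (chr9:44920743-44920992, minus strand): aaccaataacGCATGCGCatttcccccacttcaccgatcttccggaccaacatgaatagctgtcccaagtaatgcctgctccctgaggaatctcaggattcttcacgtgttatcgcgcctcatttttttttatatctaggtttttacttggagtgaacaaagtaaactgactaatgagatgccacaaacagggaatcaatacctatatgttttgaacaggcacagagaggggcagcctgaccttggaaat
Ndufa10 (chr1:92473861-92474008, minus strand): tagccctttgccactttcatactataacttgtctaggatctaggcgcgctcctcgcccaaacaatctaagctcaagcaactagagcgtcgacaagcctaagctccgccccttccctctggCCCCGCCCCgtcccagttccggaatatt
The other members that passed a pairwise test and are printed here held none of the 5 motifs. All 6 genes were chosen for printing after their values were seen. Windows were cut to the longest stretch without annotated untranslated or coding bases, so intron sequence can remain. The Cox7a2l window lies inside the annotated gene (83501918 to 83517330), before an alternative start.
Atp5g1 (chr11:96075671-96075881, minus strand): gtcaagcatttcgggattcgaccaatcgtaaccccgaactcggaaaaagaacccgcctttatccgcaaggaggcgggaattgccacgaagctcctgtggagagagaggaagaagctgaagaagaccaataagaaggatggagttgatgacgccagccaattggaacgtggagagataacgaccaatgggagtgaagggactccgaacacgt
Cox7a2l (chr17:83514334-83514583, minus strand): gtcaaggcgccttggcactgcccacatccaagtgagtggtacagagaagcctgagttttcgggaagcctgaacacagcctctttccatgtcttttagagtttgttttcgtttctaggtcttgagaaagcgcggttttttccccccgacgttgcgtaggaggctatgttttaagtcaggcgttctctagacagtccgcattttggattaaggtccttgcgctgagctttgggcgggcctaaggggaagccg
Cox8a (chr19:7217617-7217866, minus strand): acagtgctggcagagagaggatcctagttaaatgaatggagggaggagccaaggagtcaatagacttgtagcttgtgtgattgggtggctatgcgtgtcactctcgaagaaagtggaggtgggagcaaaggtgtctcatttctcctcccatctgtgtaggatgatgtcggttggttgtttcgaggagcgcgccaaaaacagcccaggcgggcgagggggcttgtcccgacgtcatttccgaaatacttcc

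The level of a complex in a library was taken as the mean over its members of the difference from each member's mean over 49 libraries, on the log2 scale. For complex IV the group means of this level ran from -0.066 in CreTM to 0.0996 in the libraries labelled AKO, and over its 11 members at a mean of 8 or more from -0.0435 to 0.0649. For complex I they were -0.026 in 2MHF, 0.016 in 4MHFW, 0.067 in AKO, -0.008 in CreVE and -0.052 in CreTM. Complex III ran from -0.071 in CreTM to 0.060 in AKO, complex V from -0.043 to 0.046 and complex II from -0.033 to 0.036, between the same 2 groups. The library values overlapped between all groups. The CreTM mean was the lowest of the 5 for 51 of 81 members (63%, against 19.5% of the 14023 genes with a mean of 5 or more), and the AKO mean was the highest for 59 (72.8%, against 22.5%) and the lowest for 0.

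**Figure D2:**
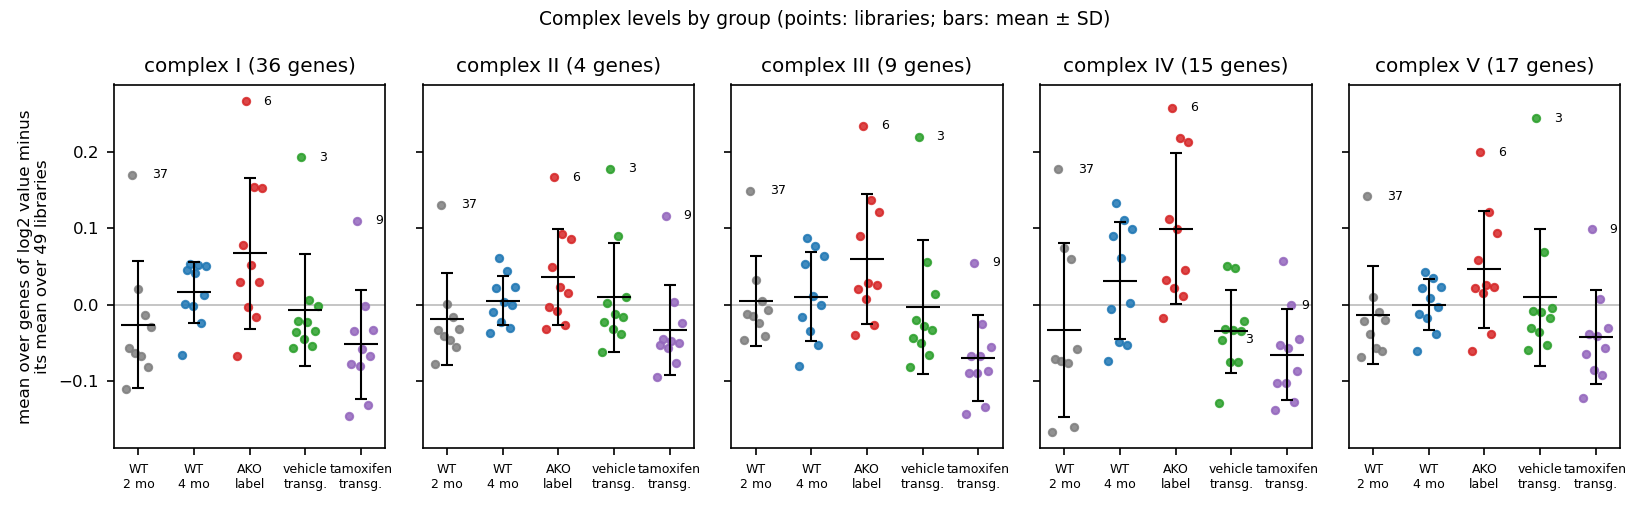
Level of each complex (mean log2 difference of its members from their 49-library means) in each library, by group, with the group mean. Library values overlap between all groups, and 2MHF 37, AKO 6, CreVE 3 and CreTM 9 are at or near the top of their groups for complexes I, II, III and V.

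Complexes I, II, III and V varied together from library to library more than they varied apart. Within groups the SD of the level was 0.076 for complex I and 0.068 for complex V, while the SD of their difference was 0.026. For complexes III and V the difference had an SD of 0.022, and for complexes II and V of 0.027. Complex IV, whose own SD was 0.083, departed more: its differences from complexes I, II, III and V had SDs of 0.062, 0.075, 0.073 and 0.072, and the last 3 exceeded the SDs of complexes II, III and V themselves (0.059, 0.071 and 0.068). With its 11 members at a mean of 8 or more, which leaves out its low isoforms, the SD of the difference was 0.029 from complex I, 0.047 from complex II, 0.036 from complex III and 0.038 from complex V. The median within-group SD of the 76 members at a mean of 8 or more was 0.0967, against 0.134 for all 11142 such genes. The sets were not matched for level, and the part of level in this difference was not tested. Sdha was the steadiest member, with an SD of 0.032.

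A few libraries carried much of this shared variation. 2MHF 37 had the highest value of its group for 69 of 81 members, AKO 6 for 64, CreVE 3 for 61 and CreTM 9 for 54, where an even share would be 8.1 to 9. In 2MHF 37 all 81 members lay above the median of the other 8 libraries, by a median of 0.195. In the same library the cytosolic ribosomal protein genes lay 0.27 above it, mitochondrial ribosomal protein genes 0.173 and proteasome genes 0.115, while the TCA cycle and pyruvate dehydrogenase genes lay 0.031 above it. AKO 6 had a median of 0.204 for the members, 0.214 for cytosolic ribosomal proteins and 0.058 for the TCA list. CreVE 3 had 0.239, 0.329 and 0.061, and CreTM 9 had 0.174, 0.325 and 0.017. AKO 21 lay the other way, at -0.113 for the members and -0.185 for cytosolic ribosomal proteins. The part of region markers and of ribosomal protein levels in these values was not tested.

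**Figure D3:**
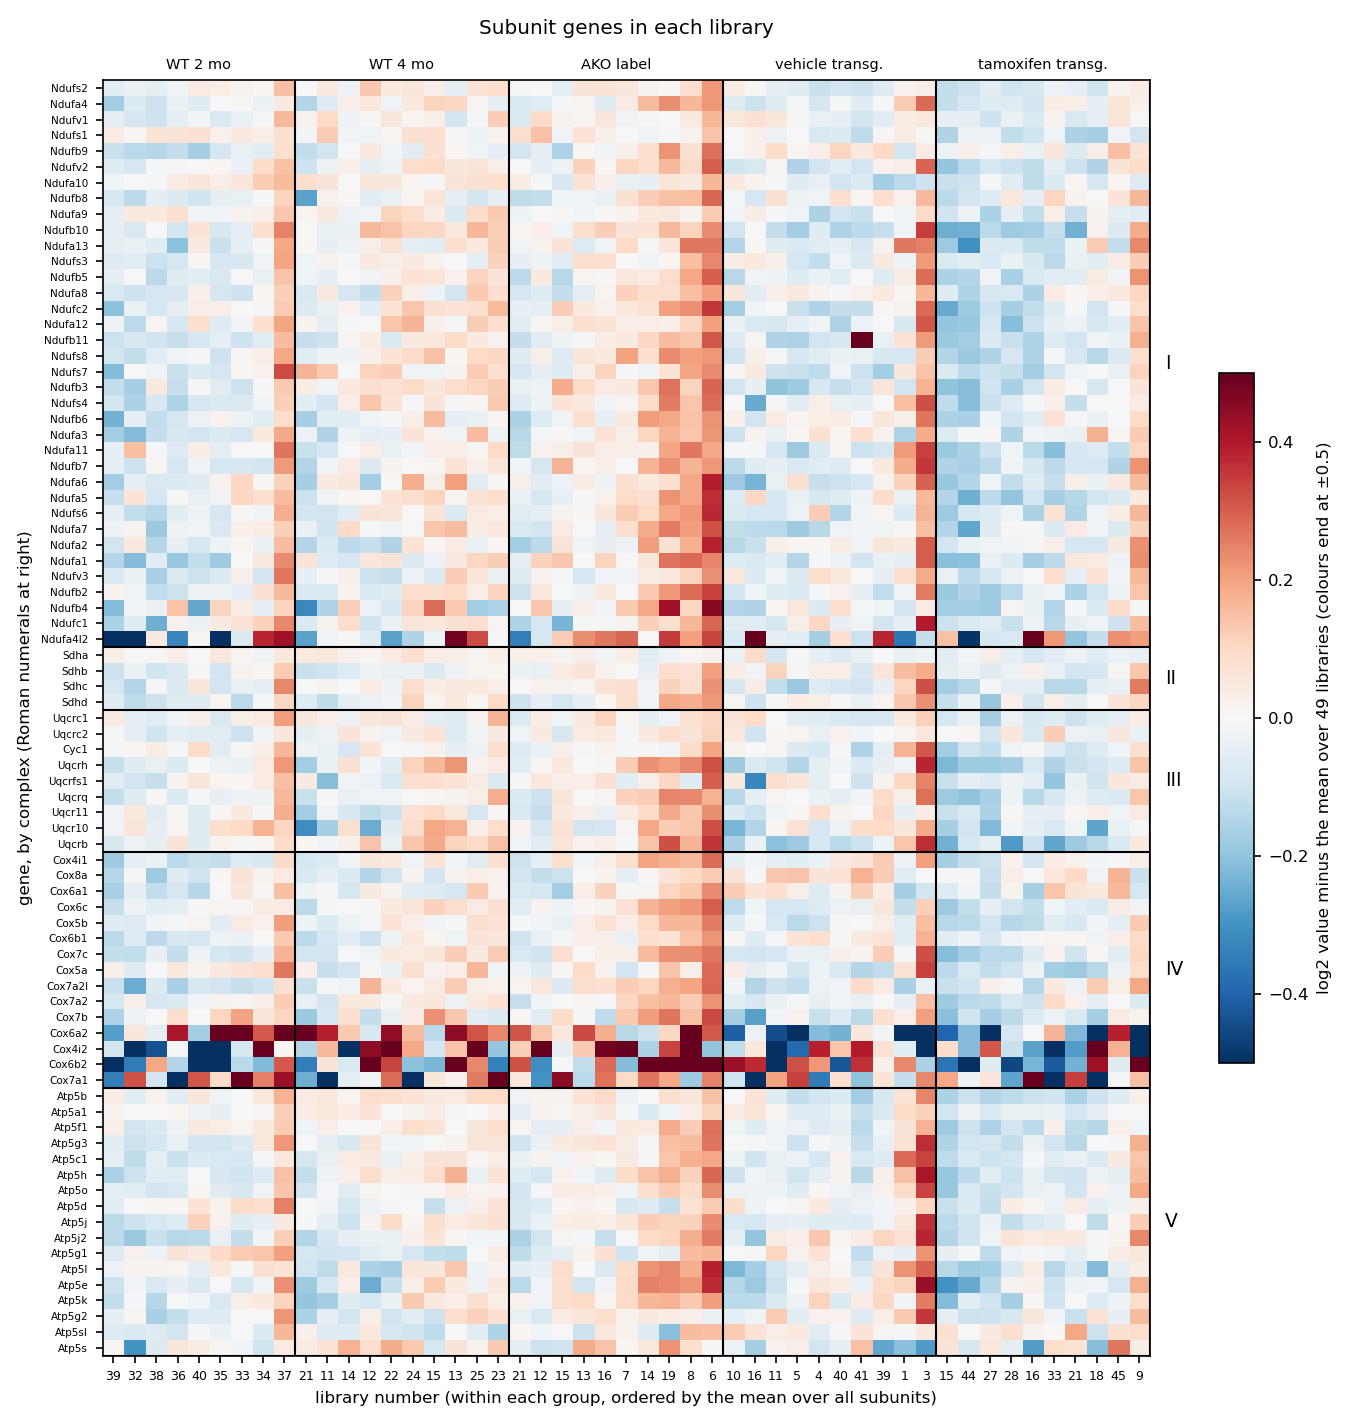
Difference of each member from its 49-library mean (log2 colour scale), members in rows by complex and libraries in columns by group. The libraries 2MHF 37, AKO 6, CreVE 3 and CreTM 9 form columns that are high across complexes I, II, III and V, while differences between whole groups are faint.

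Across the 5 groups, 25 of 81 members differed by limma's F test at an adjusted p under 0.05, against 23.2% of all 15856 genes tested. They were 12 of 36 in complex I, 1 of 4 in complex II, 2 of 9 in complex III, 6 of 15 in complex IV and 4 of 17 in complex V. Of the 25, the CreTM mean was the lowest for 20 and the AKO mean the highest for 19. These 25 were picked by a test on the same group means. The matching shares among all genes that passed are not given here, so these 2 counts cannot be read as particular to the members. Of the 7 core subunits of complex I, which carry the redox centres, 4 differed. Ndufs1, the largest of them, ran from 12.84 to 12.99 in CreTM (median 12.91), from 12.88 to 13.04 in CreVE (13.01), from 12.98 to 13.14 in 4MHFW (13.02), from 12.99 to 13.16 in AKO (13.03) and from 13.02 to 13.08 in 2MHF (13.05). Its adjusted p was 4.47e-04, and the CreTM and 2MHF values did not overlap. Ndufs8, a core iron-sulphur subunit, had medians of 11.59 in CreTM, 11.66 in CreVE, 11.69 in 2MHF, 11.76 in 4MHFW and 11.78 in AKO, with overlap between all groups (adjusted p 0.0028).

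Among accessory subunits of complex I, Ndufa10, Ndufb3 and Ndufa5 had the smallest p. Ndufa10 had a median of 12.47 in both transgenic groups and of 12.56 to 12.59 in the other 3 (adjusted p 0.00116). Ndufb3 had medians of 11.59 in CreVE, 11.60 in CreTM, 11.64 in 2MHF, 11.76 in 4MHFW and 11.79 in AKO (adjusted p 0.0012). Ndufa5 was lowest in CreTM, at a median of 11.07 against 11.17 to 11.26 in the other groups (adjusted p 0.0058). In complex II the F test called Sdha, with medians from 14.44 in CreTM and CreVE to 14.51 in 4MHFW (adjusted p 0.0308). It missed the threshold without CreTM 16 or without 4MHFW 24. Sdhb, Sdhc and Sdhd did not pass.

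In complex III, Uqcrb, a small subunit of the ubiquinone-binding region, had medians of 11.34 in CreTM, 11.36 in CreVE, 11.47 in 2MHF, 11.51 in AKO and 11.56 in 4MHFW (adjusted p 0.0035). Uqcrh had medians from 12.42 in CreTM to 12.64 in AKO (adjusted p 0.0194). In complex IV, Cox6a2 had medians of 6.63 in CreVE and 6.74 in CreTM, and of 7.12 to 7.26 in the other groups (adjusted p 0.0016). Cox7a2l, a factor that joins complexes III and IV in supercomplexes, ran from a median of 12.38 in 2MHF to 12.57 in AKO (adjusted p 0.0027). The complex IV subunits Cox6c, Cox5b and Cox4i1 also passed (adjusted p 0.0068, 0.0257 and 0.0269), but Cox5b missed the threshold without AKO 6, 8 or 19, and Cox4i1 without AKO 6, 8, 14 or 19, each left out alone. In complex V, Atp5b had medians of 15.85 in CreTM, 15.89 in CreVE, 15.97 in 2MHF, 15.99 in AKO and 16.02 in 4MHFW (adjusted p 0.0023). Atp5f1, the peripheral stalk subunit b, ranged from 13.48 in CreTM to 13.63 in AKO (adjusted p 0.0107). Atp5k and Atp5l, the dimer-forming subunits e and g, had adjusted p values of 0.0439 and 0.0447 and missed the threshold in 17 and 24 of 49 fits that left out 1 library.

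The number of members called moved with single libraries. It was 37 without CreTM 9, 36 without CreVE 3, and 35 without 2MHF 37 or without AKO 21, each left out alone, and 17 without AKO 19. The share of all genes that passed in each of these fits is not given here, so the shifts cannot be read as particular to the members. Without both CreVE 3 and CreTM 9, which had the lowest excitatory neuron levels and were chosen after seeing the data, 49 of 81 members passed (21 of complex I, 3 of II, 4 of III, 10 of IV and 11 of V), against 32.2% of all genes. With all 49 libraries, where 23.2% of all genes passed, the other mitochondrial lists passed in 6 of 15 complex I assembly genes, led by Ndufaf1 (adjusted p 4.23e-09), 7 of 21 complex IV assembly genes, led by Coa3 (1.6e-05), 4 of 6 for complex III, 2 of 4 for complex II and 1 of 4 for complex V. They also passed in 5 of 16 TCA cycle and pyruvate dehydrogenase genes, led by Dlst (1.53e-06), and 5 of 10 electron carriers and translocators, led by the phosphate carrier Slc25a3. Of the cytosolic ribosomal proteins 59 of 79 passed, of the mitochondrial ones 22 of 77, of the proteasome subunits 19 of 38, and of the myelinating oligodendrocyte markers 8 of 8.

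Libraries labelled AKO were compared with WT at the same 4 months of diet, the comparison that addresses the label. No member passed the test with limma, against 0.79% of all 15185 genes. At an unadjusted p under 0.05 there were 8 members, all higher in AKO, against 6.91% of all genes in that direction, and limma-voom on recovered reads called 0 with 7 unadjusted. The unadjusted count was 2 without AKO 6 or without AKO 19, 15 without AKO 12, 23 without AKO 21 and 3 with sample quality weights. The share of all genes that reached this level in each of these fits is not given here. These shifts therefore cannot be read as particular to the members. The difference was above 0 for 71 of 81 members (52.3% of all genes), with a median of 0.055 (0.005 over all genes). By complex it was above 0 for 32 of 36, 3 of 4, 8 of 9, 14 of 15 and 14 of 17 members of complexes I to V.

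Atp5k had the smallest p, with 11.37 to 11.60 (median 11.49) in AKO and 11.20 to 11.52 (median 11.39) in 4MHFW. The difference was 0.119 (SE 0.041, 95% interval 0.033 to 0.204, limma adjusted p 0.188), and the groups overlapped. Sdhb differed by 0.083 (SE 0.031, adjusted p 0.211) and Atp5l by 0.130 (SE 0.055, adjusted p 0.284). In the same comparison 77 of 79 cytosolic ribosomal protein genes and 34 of 38 proteasome genes lay above 0, with 0 called in either list, while 2 of 8 myelin markers fell and the others lay below 0. The 8 striatum markers lay above 0 (median 0.417), and the 8 olfactory bulb (median -0.464) and 8 endothelial markers below it, with 0 called in these lists and 2 endothelial markers at an unadjusted p under 0.05. Their part in the members' differences was not tested. Without AKO 6, 64 members lay above 0 with a median of 0.029, and without AKO 21 it was 73. In the 5 libraries of each group that share a number in the labels, 39 of 81 members lay above 0, with a median of -0.0009.

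Tamoxifen against vehicle in the transgenic mice also gave no member past the test, where 0% of 15270 genes passed by limma. At an unadjusted p under 0.05 there were 2 members, Ndufa5 and Ndufs1, both lower (1.57% of all genes), and limma-voom also gave 0 called and 2 unadjusted. There were 15 without CreTM 9 and 12 with sample quality weights. The matching shares of all genes are not given here, so these shifts cannot be read as particular to the members. The difference was below 0 for 74 of 81 members (50.6% of all genes), with a median of -0.047, and it was below 0 for all 4 members of complex II, all 9 of complex III and all 7 core subunits of complex I. Ndufa5 ran from 10.97 to 11.26 (median 11.07) with tamoxifen and from 11.12 to 11.37 (median 11.17) with vehicle. Its difference was -0.120 (SE 0.040, 95% interval -0.203 to -0.038, limma adjusted p 1.0), and the groups overlapped. Ndufs1 differed by -0.065 (SE 0.031) and Uqcrq, a small complex III subunit, by -0.095 (SE 0.047). All 16 TCA cycle and pyruvate dehydrogenase genes lay below 0, with a median of -0.034, and 8 of 8 olfactory bulb markers did so. The 8 myelin markers lay above 0 (median 0.194), as did 5 of 6 choroid plexus markers (median 0.657, 2 at an unadjusted p under 0.05), and the part of these shifts in the members was not tested. Without CreVE 3, 15 of 81 members lay above 0 in place of 7, and the median was -0.028.

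The AKO label effect minus the tamoxifen effect, fitted as an interaction over 4 groups, called 0 members with limma (0.0383% of 15665 genes). It was above 0 for 76 of 81 members (51.2% of all genes), with a median of 0.101, and 21 members had an unadjusted p under 0.05, all higher, against 2.94% of all genes. That count ran from 10 without AKO 6 to 33 without CreTM 9, and limma-voom gave 0 called and 21 unadjusted. Shares of all genes in the fits without 1 library are not given here, so this range cannot be read as particular to the members. Sdhb had the smallest p, with a difference of differences of 0.155 (SE 0.046, 95% interval 0.063 to 0.247, adjusted p 0.557). Atp5k (0.188, SE 0.063) and Atp5l (0.227, SE 0.081) followed, with adjusted p of 0.656 and 0.738. In the same contrast 77 of 79 cytosolic ribosomal protein genes (median 0.099), 35 of 38 proteasome genes and 8 of 8 striatum markers lay above 0. All 8 myelin markers lay below 0, with a median of -0.375 and 8 at an unadjusted p under 0.05. Their part in the members' values was not tested.

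**Figure D4:**
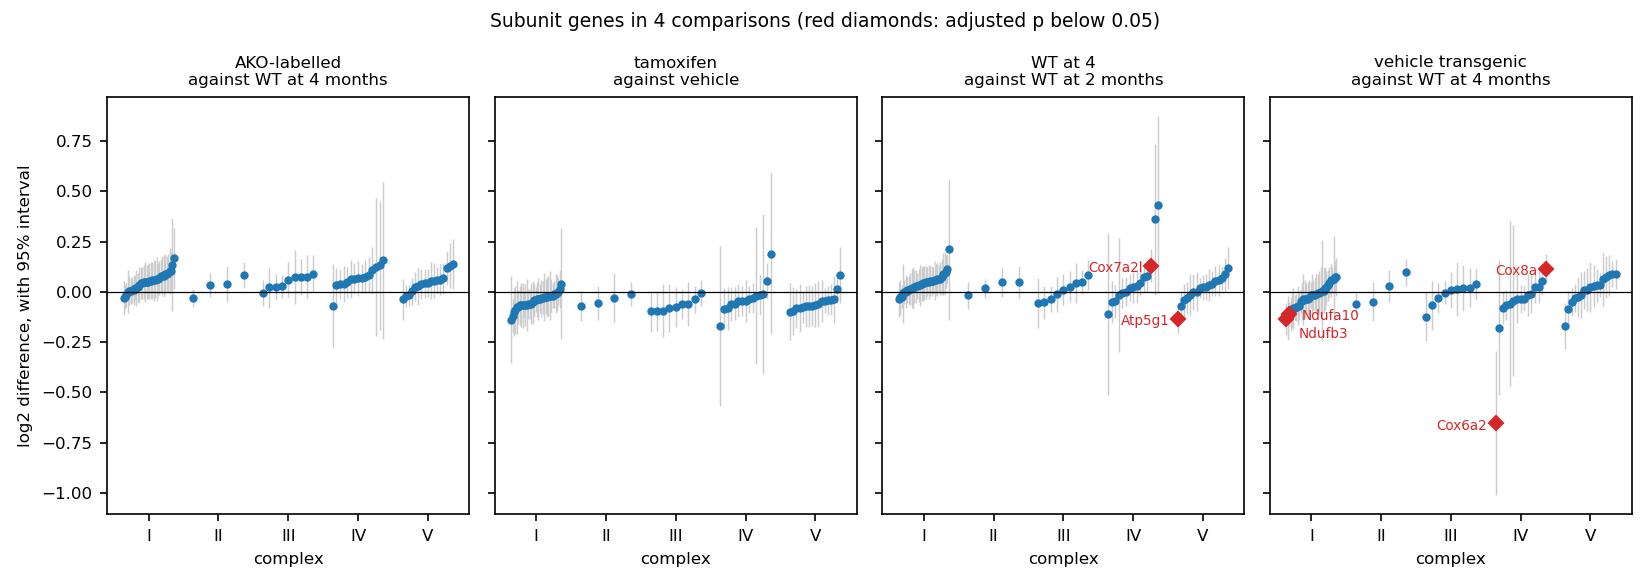
log2 difference of each member in the 4 pairwise comparisons, by complex, with members past an adjusted p of 0.05 marked. Members lie mostly above 0 for AKO against WT and mostly below 0 for tamoxifen against vehicle, and marked members appear only for the WT and the vehicle against WT comparisons.

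Between 4 and 2 months of diet in WT, 2 of 81 members changed by limma, against 8.77% of 15159 genes. All groups had the high fat diet and the labels give no age, so diet duration and age cannot be told apart here. Atp5g1 was lower at 4 months: it ran from 12.11 to 12.27 (median 12.15) at 4 months and from 12.17 to 12.44 (median 12.30) at 2 months. The fall was -0.134 (SE 0.035, 95% interval -0.206 to -0.062, adjusted p 0.0224), with overlap between the groups. The call held in all 19 fits without 1 library, and was lost with total-read scaling and with WT libraries 21 to 25 alone. The ratio of Atp5g3 to Atp5g1 ran from 7.284 to 8.402 at 2 months and from 8.415 to 9.22 at 4 months, ranges that nearly touch. In the other groups with 4 months of diet it ran from 8.321 to 9.538 (AKO), 7.646 to 9.204 (CreVE) and 7.723 to 9.09 (CreTM). Each of these ranges overlapped that of 2MHF. The ratio was not tested, and Atp5g1 had already been called in the same WT libraries.

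Cox7a2l was higher at 4 months, at 12.37 to 12.65 (median 12.50) against 12.23 to 12.55 (median 12.38). The rise was 0.131 (SE 0.039, 95% interval 0.050 to 0.211, adjusted p 0.0389). It passed without 4MHFW 11, 14, 21, 22 or 24 or 2MHF 37, 38 or 40, and missed the threshold without each of the other 11 libraries. Without 2MHF 37, 11 members passed (10 higher), against 18.7% of all genes: Ndufs3, Ndufs7, Ndufb3, Ndufs4, Ndufa1, Cox4i1, Cox7c, Cox7a2l, Atp5c1 and Atp5h were higher and Atp5g1 lower. With all libraries 61 of 81 members lay above 0 (50.9% of all genes), with a median of 0.030, 32 of them among the 36 of complex I. Of the assembly genes Cox10, which makes haem for complex IV, fell by 0.136 (adjusted p 0.0371), and of the TCA list Ogdh fell by 0.153 and Suclg2 rose by 0.214. The cytosolic ribosomal proteins rose in 26 of 79, microglia markers in 6 of 8, astrocyte markers in 4 of 8 and endothelial markers in 3 of 8. Of the excitatory neuron markers, 3 of 10 fell. All 8 olfactory bulb markers (median 0.739), all 8 striatum markers (median 0.511) and all 6 choroid plexus markers tested (median 0.644) lay above 0, with 0 called. At an unadjusted limma p under 0.05 were 3 olfactory bulb and 2 choroid plexus markers. Their part in the members' differences was not tested.

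The vehicle transgenic group against WT at 4 months, which compares mice that may differ in more than the transgene, gave 4 of 81 members past the test by limma, against 6.2% of 15129 genes. This comparison, the AKO comparison and the diet comparison share the 4MHFW libraries. Ndufa10 was lower in CreVE, at 12.36 to 12.58 (median 12.47) against 12.53 to 12.62 (median 12.59) in WT. The difference was -0.112 (SE 0.029, 95% interval -0.172 to -0.052, adjusted p 0.0236), with overlap. Cox6a2 showed the largest difference of the 4, -0.654 (SE 0.172, 95% interval -1.01 to -0.297, adjusted p 0.0259), from 6.82 to 7.45 (median 7.24) in WT and from 5.22 to 7.02 (median 6.63) in CreVE. The lowest value, 5.22, was CreVE 3, and without that library the difference was -0.507 (adjusted p 0.0069). Pvalb, the parvalbumin gene, had a median of 10.79 in 4MHFW and 10.69 in CreVE, and 9.03 in CreVE 3. Of the other inhibitory neuron markers, Sst was also lowest of its group in CreVE 3 (10.63), while Gad1 was highest there (16.15). The summed inhibitory neuron list was highest there too (16.92). The part of these levels in the Cox6a2 value was not tested.

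Ndufb3 was lower by -0.134 (SE 0.039, adjusted p 0.0406), and Cox8a, the common isoform of a small complex IV subunit, was higher by 0.116 (SE 0.035, adjusted p 0.0495). Cox8a ran from 13.60 to 13.83 (median 13.73) in CreVE and from 13.51 to 13.69 (median 13.60) in WT, with overlap. Ndufa10 and Cox6a2 passed in all 20 fits without 1 library. Ndufb3 passed without CreVE 3, 16 or 39 or 4MHFW 11, and Cox8a without CreVE 1, 3 or 16 or 4MHFW 13, and each missed the threshold in the other 16. Without CreVE 3, 11 members passed (10 lower), against 9.85% of all genes: Ndufa10, Ndufb10, Ndufc2, Ndufa12, Ndufs8, Ndufs7, Ndufb3, Uqcrb, Cox6a2 and Atp5b were lower and Cox8a higher. With 5 of the WT libraries, numbered 11 to 15 or 21 to 25, limma called 0 members, with 8 and 13 at an unadjusted p under 0.05. The shares of all genes in these 2 fits are not given here, so these counts cannot be read as particular to the members. All 7 core subunits of complex I lay below 0, with a median of -0.048. Among assembly genes Ndufaf1 fell by 0.240 (adjusted p 6.82e-04) and Coa3 by 0.147 (adjusted p 0.00667). All 8 myelin markers fell, with a median of -0.62, as did 2 of 8 endothelial and 2 of 8 microglia markers, and the 1 erythrocyte marker tested rose by 0.877. The 8 striatum markers lay below 0 with 0 called (median -0.854, 2 at an unadjusted p under 0.05), and the part of these shifts in the members was not tested.

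**Figure D5:**
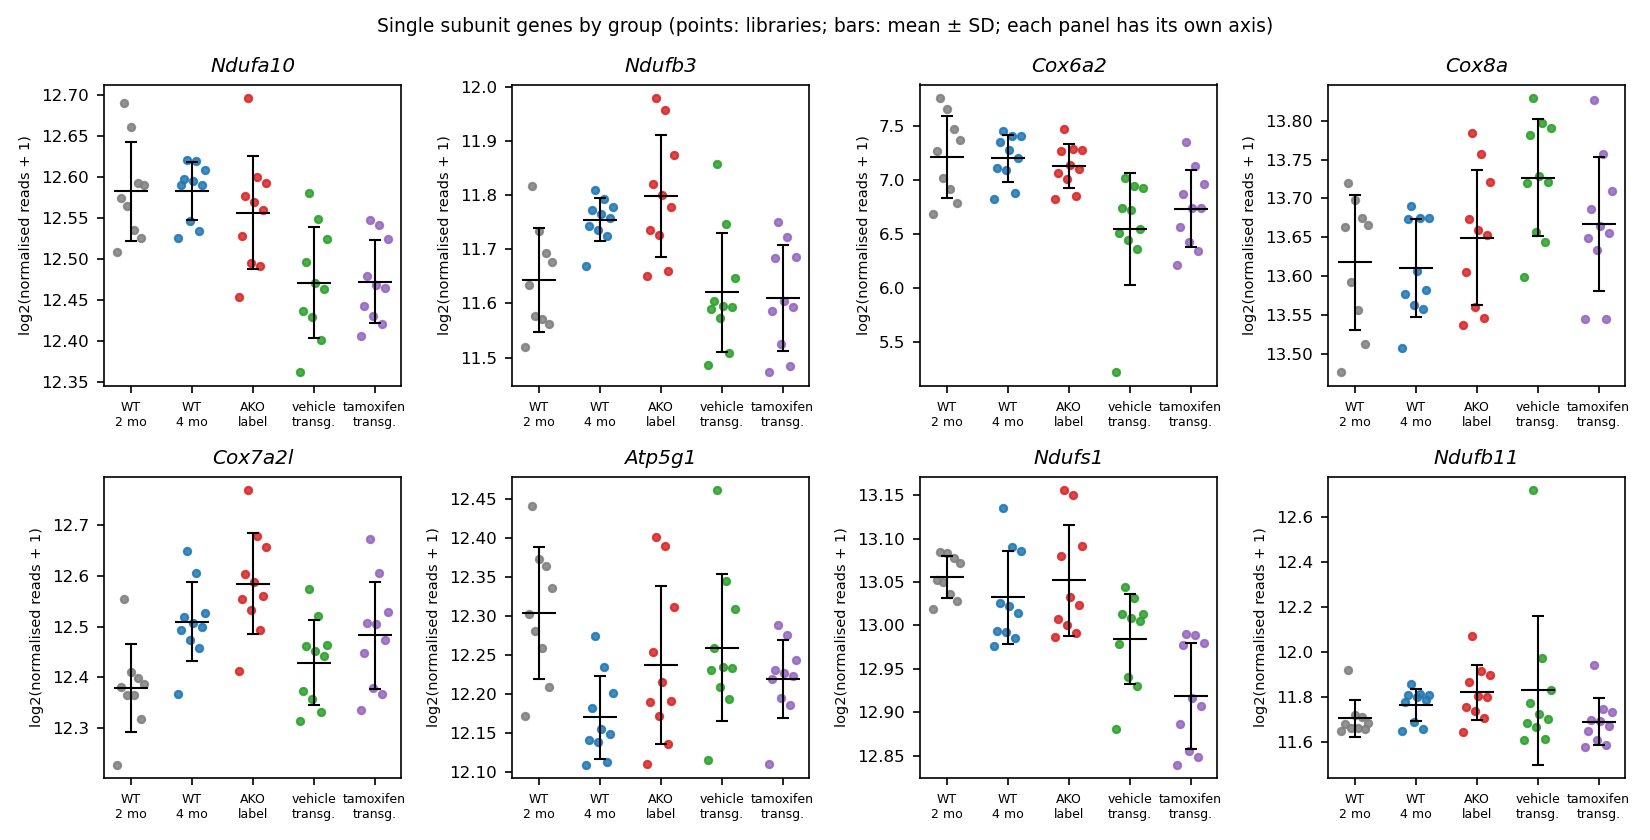
Deposited log2 values of single members in every library, by group, with group means. Cox6a2 is low in CreVE 3 (5.22), Ndufb11 is high in CreVE 41 (12.72), and the groups overlap for the members called in pairwise tests.

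Across these comparisons, the precision was of the same order as the differences. The median half-width of the 95% interval of a member's difference was 0.087 for AKO against WT and 0.098 for tamoxifen against vehicle. It was 0.080 for WT at 4 against 2 months and 0.090 for vehicle against WT. A member that did not pass was therefore not shown to be equal between groups.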

How the data were processed

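The submitters deposited 1 table for the series; per the labels' protocols, RNA of the frontal cortex was made into libraries with the Illumina TruSeq Stranded mRNA kit. The values in the file deposited by the authors are log2 of reads divided by a size factor, plus 1; the sources used here do not give the aligner, build or counting rules. Low values gave whole reads within 0.1 read (99.92% to 100% of values up to 200 reads per library), and 7 genes that did not were left out, as was 1 value column that matched no sample. Total reads per library ran from 29.2 to 75.6 M. The closest pair of libraries in any group had a mean chi-square of 6.62 per gene, so no library was counted as a duplicate.

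Groups were compared with limma 3.58.1 (trend and robust settings, R 4.3.3) on the deposited log2 values, with Benjamini-Hochberg adjustment over all genes tested and a threshold of 0.05. A gene was tested if it had 15 reads in total and, at the median depth, 10 reads in a number of libraries equal to the size of the smaller group. An F test used all 49 libraries, pairwise tests the 2 groups alone, and the interaction 4 groups. The test was run on simulated data first. Positions and lengths came from GENCODE M21 (80 of 81 members), promoters from RefSeq.

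The members and lists were chosen with earlier results of these data known. Named genes were members past the threshold (up to 5 per complex in the F test), otherwise the 3 with the smallest p in a comparison; extremes per kilobase; isoform pairs, c-ring and complex II genes, Cyc1 and Uqcrfs1; and up to 2 leading genes of other lists. Members called only without 1 library, and Ndufb11, were named after their values were seen. Alternatives were limma-voom on recovered reads, other filters, pseudocounts, scalings, weights and sets of libraries.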

Additional observations from a re-analysis of the deposited data

Results flagged for a closer look

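In 12 of 60 sets of values (1 measure in 1 group) the highest or lowest library stood apart from the others by Dixon's ratio. For 1 independent set chance gives about 1 in 20, but these sets are not independent, because the complex levels move together within libraries. The count of 12 is therefore not a measure of excess over chance. Ndufb11 was among the 7 single genes examined because it had been seen to stand out. In 2MHF 37 the level was 0.1705 for complex I, 0.1312 for complex II, 0.1497 for complex III and 0.1425 for complex V, on the log2 scale relative to the 49-library mean. In CreVE 3 it was 0.1939 for complex I, 0.2206 for complex III and 0.2452 for complex V, and in CreTM 9 it was 0.1169 for complex II. Cox6a2 was lowest in CreVE 3, at 5.222, where the next library was at 6.359. Ndufb11, an accessory subunit of complex I on the X chromosome, was at 11.92 in 2MHF 37, at 11.94 in CreTM 9 and at 12.72 in CreVE 41, where the next vehicle library was at 11.97.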

How the results depend on the processing

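The F test across the 5 groups gave 16 members with total-read scaling (22.8% of all genes) and 55 with sample quality weights (43.3% of all genes). It gave 49 without CreVE 3 and CreTM 9, which had the lowest excitatory neuron marker levels and were chosen after seeing the data. The fits without 1 library gave 17 to 37. For WT at 4 against 2 months the count of 2 (8.77% of all genes) became 1 with no filter (5.12%) or with total-read scaling (8.6%). With quality weights it was 4 (16.1%). It also became 1 with all 49 libraries in 1 model or with WT 11 to 15 only. With WT 21 to 25 only it was 0 (5 at an unadjusted p under 0.05), and it ran from 1 to 11 without 1 library. For vehicle transgenic against WT the count of 4 (6.2% of all genes) became 2 with no filter (3.97%) and 17 with quality weights (16.7%). It became 0 with WT 11 to 15 or WT 21 to 25 only and 11 without CreVE 3, and ran from 2 to 11 without 1 library. With 5 WT libraries fewer samples enter the fit. The cause of the other shifts was not tested. Where no share of all genes stands beside a count, its shift cannot be read as particular to the members. The AKO, tamoxifen and interaction comparisons gave 0 members under every alternative run. The AKO and WT groups share 5 replicate numbers, whose deviations had correlations from -0.317 to 0.166, so the numbers were not taken as pairs; with the replicate block 0 members passed, as without it. The complex II and V differences of vehicle minus WT, near 0, were -0.0142 and -0.0169 without CreVE 3 and CreTM 9. The interval half-widths were about 0.08 to 0.10 log2 for a median member at this depth and number of libraries. Over members and pairwise comparisons they ran from 0.045 to 0.440. A half-width is the difference at which the unadjusted p reaches 0.05, and the adjusted threshold asks for more. Differences near or below it could therefore be missed.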

Other observations

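The high Ndufb11 value of CreVE 41 was not limited to that gene. On the X chromosome (GRCm38, 18162575 to 21364622), 15 consecutive genes with a mean of 8 or more, Ndufb11 among them, were each more than 0.5 log2 above the median of the other vehicle libraries, a rule set after seeing the data. All 15 had their highest value of the 49 libraries in CreVE 41. The median difference was 0.961, or 1.95-fold, and it ran from 0.631 to 1.13. Over the 364 other X genes the median difference was -0.011 and 3 had their highest value there, and over 10763 genes on other chromosomes 82 did.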
